A study of Mus musculus with 6 samples.

Results

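The genes described here make, take up and sense cholesterol, and all 30 listed members were found by symbol among the 50763 genes of the count table. They comprise 6 enzymes of the mevalonate steps, 2 prenyl diphosphate synthases, 3 enzymes from squalene to lanosterol, 9 enzymes and reductases from lanosterol to cholesterol, 5 genes of the SREBP control system, and 5 genes of sterol uptake, transport and efflux. The study profiled whole mouse testis at postnatal day 14 by sequencing of poly(A) RNA. It held 3 wild-type (WT) libraries and 3 libraries of the genotype labelled sKO, a conditional knockout of Rif1 in germ cells ahead of meiosis. The Cre driver, the deleted exons, and the strain and allele state of the controls are not stated in the labels used here. Nothing in the labels ties each sample to a separate animal, so p-values speak of the spread among these 6 libraries, part of which may be technical.

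Cholesterol is built from acetyl-CoA through mevalonate, isoprenoid diphosphates, squalene and lanosterol, and the isoprenoid intermediates also feed protein prenylation, dolichol and ubiquinone. The transcription factors SREBP1 and SREBP2, encoded by Srebf1 and Srebf2, sit in the endoplasmic reticulum with the escort SCAP. INSIG proteins hold this complex there when sterols are plentiful, and when sterols fall it moves to the Golgi, where cleavage frees the factors to raise the genes of synthesis and uptake. In the testis cholesterol is the substrate of Leydig cell steroid synthesis, Sertoli cells and germ cells both make sterols, and the organ is known for accumulating sterol intermediates downstream of the enzyme encoded by Cyp51.

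SREBP binding sites lie in promoters, often next to sites of NF-Y and Sp1, so promoters were searched as a description of sequence. RefSeq promoters (GRCm38.p6, 250 bases before to 50 after the start) were present for 24 of the 30 members. The other 6 (Fdps, Fdft1, Sqle, Scarb1, Stard4 and Npc1) had none and could not be searched. On either strand, the sterol regulatory element TCACNCCAC was in 1 of the 24, Hmgcs1, against 1.24% of all 32851 promoters and 1.48% of 12138 genes with a mean of at least 20 counts. The NF-Y box CCAAT was in the promoters of 21 of the 24 members (87.5%) against 42.5% of those expressed genes and 37.4% of all promoters. The Sp1 box GGGCGG was in 22 (91.7%) against 65.4% and 35.7%. The E-box CACGTG was in 6 (Hsd17b7, Sc5d, Dhcr7, Scap, Insig1 and Abca1), which is 25% against 11.4% and 7.15%. The cyclic AMP response element TGACGTCA was in 0 of the 24, against 3.27% and 1.79%. Members and expressed genes were counted once if any of their promoters held the string, while the share of all promoters counts each promoter singly. The expressed genes were not matched to the members in level. In all 7 strings were searched. The looser ones were the sterol core CACNCCAC, which lies within the sterol element and was in 3 (Acat2, Hmgcs1 and Insig1; 12.5% against 7.93% and 6.24%), and the shorter string TGACG, which lies within the cyclic AMP element and was in 10 (41.7% against 33.1% and 20.8%). A letter match is not a binding site, and a missing match concerns this window and this string alone. The promoters of Hmgcs1 (chr13:119690101-119690400, plus strand) and Insig1 (chr5:28071162-28071461, plus strand) were picked after the matches were seen. They are shown because the first holds the sterol element, from position -137 to -129 relative to the start, and the second an E-box, from -101 to -96. Insig1 also belongs to the paralog pair compared below. Capitals mark every match to the 5 full motifs, which do not overlap one another here, and the looser strings are not marked.
Hmgcs1: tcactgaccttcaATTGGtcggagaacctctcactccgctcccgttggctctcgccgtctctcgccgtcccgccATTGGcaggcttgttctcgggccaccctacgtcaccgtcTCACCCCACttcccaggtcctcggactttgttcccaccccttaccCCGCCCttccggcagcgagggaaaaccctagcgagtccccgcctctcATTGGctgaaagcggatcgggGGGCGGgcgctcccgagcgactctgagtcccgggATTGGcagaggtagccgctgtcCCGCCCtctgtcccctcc
Insig1: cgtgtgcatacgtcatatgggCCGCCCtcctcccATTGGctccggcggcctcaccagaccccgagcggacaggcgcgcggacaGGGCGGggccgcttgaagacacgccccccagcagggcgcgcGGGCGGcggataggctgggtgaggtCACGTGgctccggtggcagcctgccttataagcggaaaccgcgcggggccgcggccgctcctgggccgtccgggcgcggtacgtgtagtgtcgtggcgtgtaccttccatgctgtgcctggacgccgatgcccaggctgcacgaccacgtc

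The targeted gene was examined first. Rif1 stood at 96.5, 83.7 and 129 CPM (read counts per 1000000 counts of the library, with library sizes scaled by TMM factors) in WT libraries 1 to 3 and at 42.0, 46.4 and 49.2 CPM in sKO libraries 1 to 3. Its log2 fold change was -1.17 in edgeR, with SE 0.15 and an adjusted p = 0.0145, and the call was lost when WT library 2, sKO library 1 or sKO library 2 was left out (edgeR adjusted p = 0.137, 0.0618 and 0.120), and in limma-voom (adjusted p = 0.0522), though not in limma-voom with a robust prior, which was added after that result was seen (adjusted p = 0.0453). Library totals ran from 15941672 to 18296594 counts, and the members together took 0.225% to 0.260% of a library. Every member had counts in every library and passed the low-count filter.

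None of the 30 members was called in either direction by edgeR, where called means an adjusted p under 0.05 over all 18860 genes tested. The background was 1.27% of all genes called lower and 0.0318% called higher. At an unadjusted p under 0.05 the members again gave 0 lower and 0 higher, against 8.54% and 5.06% of all genes. DESeq2 and both versions of limma-voom also called 0 members. The smallest adjusted p was 0.376, for Npc2. Estimates were higher in sKO for 25 members and lower for 5, with log2 fold changes from -0.18 (Lbr) to 0.28 (Sc5d). Over all 18860 genes tested, 10423 estimates were higher and 8437 lower. The members' median was 0.12, beside 0.03 over all genes tested, which is a description of the list and no test.

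In the fit on all 6 libraries, the intervals of the differences bound the size of a change in each member. For all 30 members the 95% confidence interval of the difference lay inside a 1.5-fold change in either direction, and for 4 of them (Fdps, Sqle, Lss and Abca1) inside 1.25-fold. Among the 9416 genes tested whose mean level lay in the members' range, 15.9 to 303.4 CPM, the shares were 86.2% inside 1.5-fold and 30.5% inside 1.25-fold. The widest upper bound was 1.49-fold, for Sc5d, and the lowest lower bound was 0.71-fold, for Tm7sf2. The intervals were taken from the edgeR fit and are not adjusted for the number of genes. They were not computed for the fits with a library left out, so the 1.5-fold bound is not shown to hold there. With 1 library left out the log2 fold change of Sc5d ran from 0.17 to 0.37. The highest came without WT library 1, with SE 0.14.

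**Figure D1:**
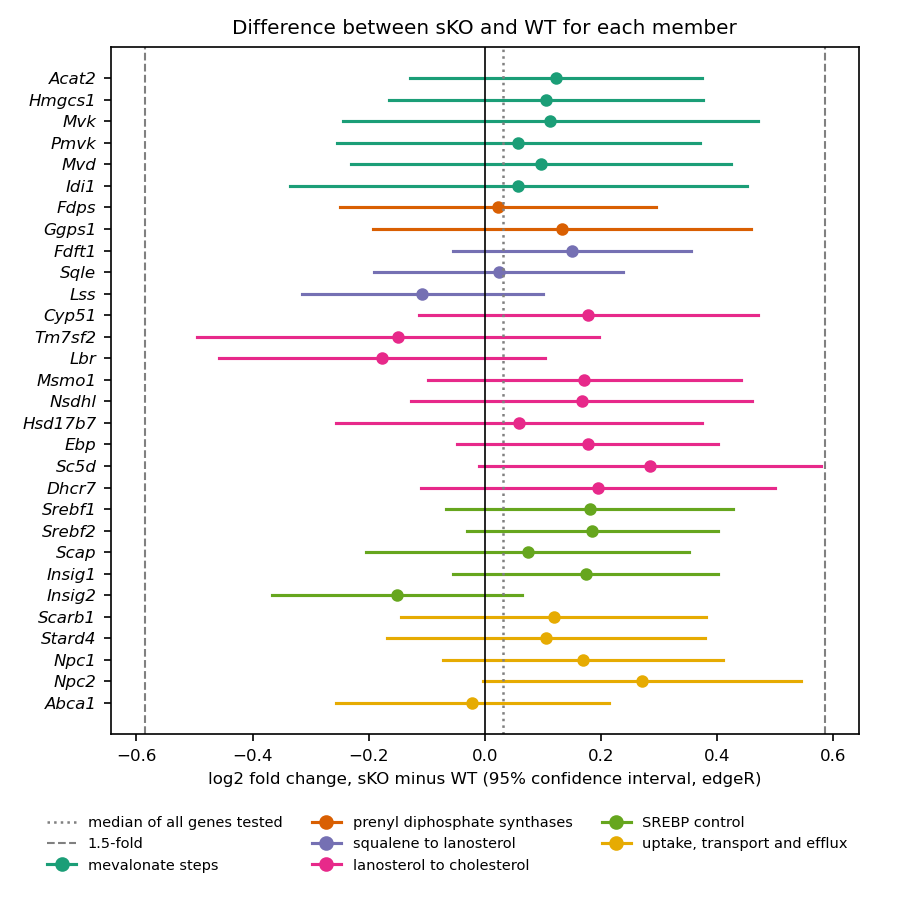
Log2 fold change of sKO over WT (x axis) for each of the 30 members (y axis), coloured by role; points are edgeR estimates, bars 95% confidence intervals, dashed lines a 1.5-fold change and the dotted line the median of all genes tested (0.03). All 30 intervals lie between the dashed lines and all 30 include 0.

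No gene of the mevalonate steps passed the test, and the libraries of the groups lay close together. Hmgcs1, the cytosolic HMG-CoA synthase, was the most abundant member, with 318, 234 and 325 CPM in WT libraries 1 to 3 and 324, 314 and 306 CPM in sKO libraries 1 to 3. Its low value was WT library 2. The groups overlapped, with WT library 1 inside the sKO range and WT library 3 above it (edgeR log2 fold change 0.11 with SE 0.12, adjusted p = 0.758). With 1 library left out, the Hmgcs1 estimate ran from -0.03 (without WT library 2) to 0.19 (without WT library 3). Acat2, the cytosolic acetyl-CoA thiolase that opens the pathway, held 45.4, 36.1 and 41.9 CPM in WT and 47.7, 43.3 and 43.4 CPM in sKO, again with WT library 2 lowest and the groups overlapping (edgeR log2 fold change 0.12 with SE 0.11, adjusted p = 0.686). Its counts are uncertain, because 39.1% of the 50-base windows of its annotated transcripts also occur in the neighbouring paralog Acat3. Mvk, Pmvk and Mvd, the kinases and the decarboxylase that turn mevalonate into isopentenyl diphosphate, and the isomerase Idi1 had log2 fold changes from 0.06 to 0.11. Idi1 spread most within a group, from 17.4 CPM in WT library 2 to 28.4 CPM in WT library 1, a span that contains its 3 sKO values of 23.6, 21.1 and 27.3 CPM. Of the 50-base windows of Idi1, 17.7% also occur in Gm13502.

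Prenyl diphosphates are made by Fdps, which forms farnesyl diphosphate, and Ggps1, which forms geranylgeranyl diphosphate for protein prenylation. Fdps held 66.8, 74.2 and 84.4 CPM in WT libraries 1 to 3 and 85.8, 77.1 and 66.0 CPM in sKO libraries 1 to 3. Ggps1 held 66.9, 45.4 and 57.4 CPM in WT and 56.8, 57.9 and 71.4 CPM in sKO. Both pairs of groups overlapped, and the libraries WT 1 and sKO 3 were the lowest pair for Fdps and the highest pair for Ggps1. In edgeR the log2 fold changes were 0.02 with SE 0.12 (adjusted p = 0.956) and 0.13 with SE 0.15 (adjusted p = 0.744). Fdps shares 26.2% of its 50-base windows with other annotated transcripts, mostly those of Gm43738 on the same strand.

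From squalene to lanosterol, Fdft1 and Lss had small differences of opposite sign. Fdft1, squalene synthase, commits farnesyl diphosphate to sterols and held 71.8, 74.2 and 76.5 CPM in WT against 80.5, 88.6 and 77.7 CPM in sKO. Lss, lanosterol synthase, held 59.4, 60.7 and 65.5 CPM in WT against 55.4, 59.1 and 57.8 CPM in sKO. Neither gene's groups overlapped, Fdft1 being higher and Lss lower in every sKO library, yet the nearest libraries of the groups lay close together and neither gene passed the test. In edgeR the log2 fold changes were 0.15 with SE 0.09 (adjusted p = 0.523) and -0.11 with SE 0.09 (adjusted p = 0.664), and the exact two-sided permutation p was 0.1 for each, the smallest that 3 against 3 allows. Sqle, squalene epoxidase, was the steadiest member in sKO at 60.0, 59.6 and 60.9 CPM, beside 63.1, 54.3 and 60.1 CPM in WT. Fdft1 has 774 exon bases in common with Ctsb on the opposite strand, and whether the counting used strand is not known here. Of the 50-base windows of Fdft1, 9.38% also occur in Gm6781, so its counts are uncertain to that extent.

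Groups without overlap were found for 4 members higher in sKO (Fdft1, Ebp, Srebf2 and Npc1) and 2 lower (Lss and Insig2). The background over all genes tested was 9.58% higher and 10.7% lower.

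**Figure D2:**
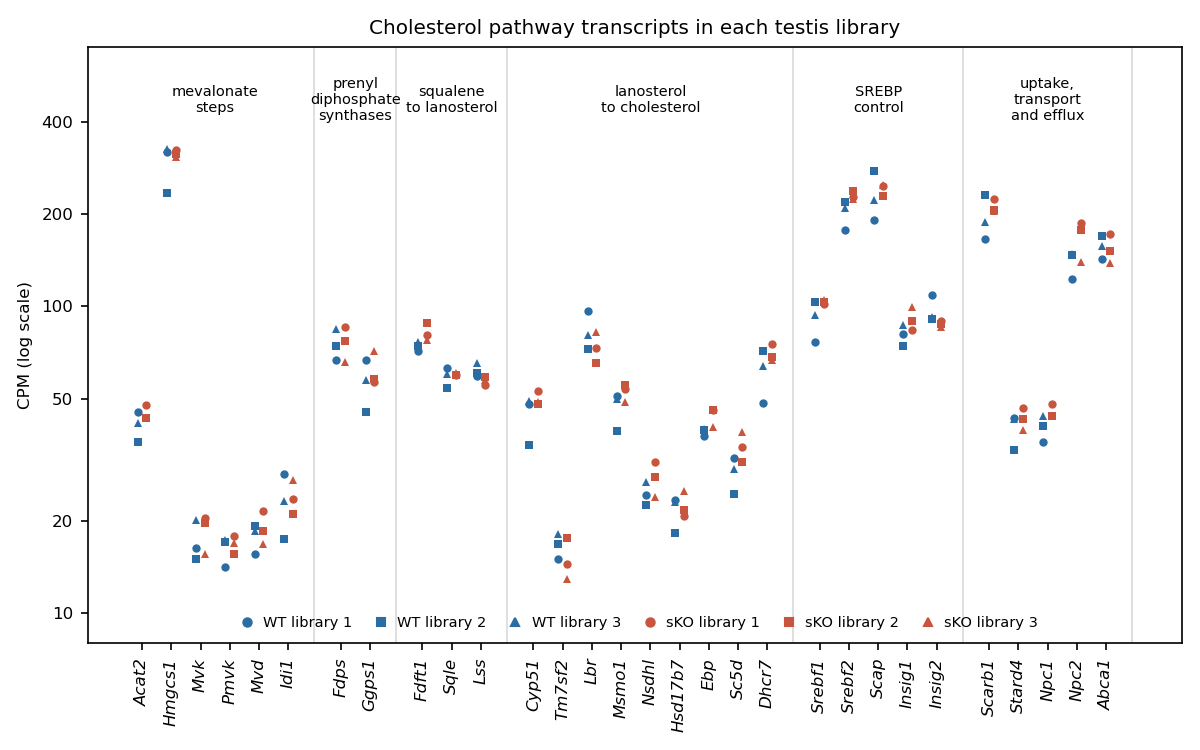
CPM (y axis, log scale) of each member (x axis, grouped by role) in the 6 libraries, WT in blue and sKO in red, with the library number as the symbol. Hmgcs1 stands highest near 300 CPM, and the WT points of Hmgcs1, Cyp51, Msmo1 and Stard4 show WT library 2 (squares) below the other 5 libraries.

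The enzymes from lanosterol to cholesterol included the largest estimate. Sc5d, the sterol desaturase that acts late in the pathway, held 32.0, 24.6 and 29.6 CPM in WT and 34.7, 31.2 and 38.9 CPM in sKO, with only sKO library 2 inside the WT range (edgeR log2 fold change 0.28 with SE 0.13, adjusted p = 0.388). Ebp, the X-linked sterol isomerase, held 37.9, 39.5 and 39.8 CPM in WT and 45.9, 46.0 and 40.6 CPM in sKO. Its groups did not overlap, with sKO library 3 next to the WT values (edgeR log2 fold change 0.18 with SE 0.10, adjusted p = 0.492). Nsdhl, the other X-linked enzyme of this stretch, had a log2 fold change of 0.17. Cyp51, the lanosterol demethylase, stood at 48.3, 35.5 and 49.1 CPM in WT and 53.2, 48.3 and 48.8 CPM in sKO, so its difference (edgeR log2 fold change 0.18 with SE 0.13, adjusted p = 0.596) came with 1 low library, WT 2. Without WT library 2 the Cyp51 estimate was 0.04. Msmo1, the sterol methyl oxidase, Hsd17b7, a sterol ketone reductase, and Dhcr7, which makes cholesterol in the final step of one branch, had log2 fold changes of 0.17, 0.06 and 0.20. With 1 library left out, the Dhcr7 estimate ran from 0.05 (without WT library 1) to 0.32 (without WT library 2). That of Msmo1 ran from 0.06 (without WT library 2) to 0.24 (without WT library 1).

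Lbr and Tm7sf2 both encode sterol reductases acting on the product of Cyp51, and LBR is also a protein of the inner nuclear membrane that tethers heterochromatin. They had the lowest estimates of this stretch. Lbr held 96.7, 72.6 and 81.0 CPM in WT and 73.5, 65.2 and 82.5 CPM in sKO (edgeR log2 fold change -0.18 with SE 0.13, adjusted p = 0.581). Tm7sf2 held 15.1, 16.9 and 18.1 CPM in WT and 14.5, 17.6 and 13.0 CPM in sKO (edgeR log2 fold change -0.15 with SE 0.16, adjusted p = 0.727). The groups overlapped for each. WT library 1 was the highest for Lbr, which shares 440 exon bases with the axonemal dynein gene Dnah14 on the opposite strand. Tm7sf2 shares 532 exon bases with Vps51 on the same strand, and 9.87% of its 50-base windows also occur in Vps51 transcripts. Its counts, and the ratio below, are uncertain to that extent. Lbr counts exceeded Tm7sf2 counts in every library, by 6.41, 4.31 and 4.47 times in WT and by 5.05, 3.70 and 6.36 times in sKO, so the balance of the pair did not separate the groups.

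Genes of SREBP control were among the more abundant members. Srebf2, which encodes the factor that mainly drives sterol synthesis, held 178, 218 and 209.9 CPM in WT and 227, 237 and 225 CPM in sKO. Every sKO library was above every WT library, by a margin smaller than the spread within WT (edgeR log2 fold change 0.19 with SE 0.10, adjusted p = 0.454). Srebf1, whose product mainly drives fatty acid synthesis, held 76.8, 103 and 93.8 CPM in WT and 102, 103 and 105 CPM in sKO, where WT library 2 reached the sKO level and WT library 1 was low (edgeR log2 fold change 0.18 with SE 0.11, adjusted p = 0.523). The ratio of Srebf2 to Srebf1 counts was 2.31, 2.11 and 2.24 in WT and 2.22, 2.30 and 2.14 in sKO, a log2 difference of less than 0.01 between the group means. Scap, the sterol-sensing escort, varied from 191 to 276 CPM within WT and from 229 to 249 CPM within sKO.

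INSIG proteins retain SCAP, and INSIG1 is itself an SREBP target. Insig1 held 81.0, 74.2 and 87.3 CPM in WT and 83.8, 89.8 and 99.9 CPM in sKO (edgeR log2 fold change 0.17 with SE 0.10, adjusted p = 0.508). Insig2 held 109, 91.2 and 92.2 CPM in WT and 89.4, 87.8 and 85.8 CPM in sKO (edgeR log2 fold change -0.15 with SE 0.10, adjusted p = 0.538). Insig1 overlapped between the groups. Insig2 was lower in every sKO library, though WT libraries 2 and 3 lay close to sKO library 1. With 1 library left out, the Insig2 estimate ran from -0.20 (without WT library 2) to -0.06 (without WT library 1). The ratio of Insig1 to Insig2 counts was 0.746, 0.814 and 0.947 in WT and 0.937, 1.02 and 1.16 in sKO. The log2 ratio was -0.27 ± 0.17 in WT and 0.05 ± 0.16 in sKO (SD, n = 3 each), and the groups overlapped through WT library 3 and sKO library 1. Of the 4 pairs compared within libraries this had the widest gap between group means, 0.32 on the log2 scale, and no p-value is given because the pairs were chosen from the members.

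**Figure D3:**
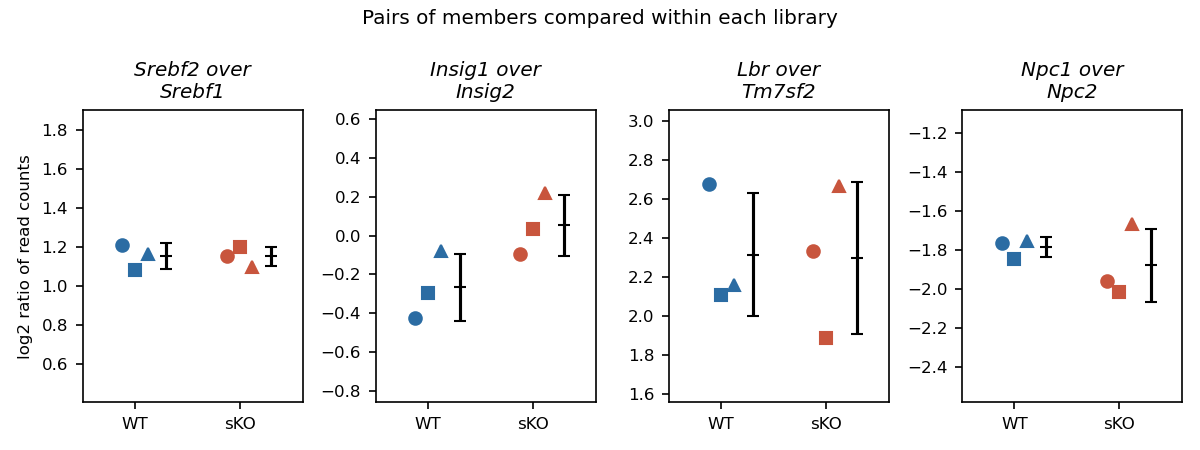
Log2 ratio of read counts (y axis) of 4 pairs of members within each library (x axis, WT in blue and sKO in red, symbols as library numbers 1 circle, 2 square, 3 triangle), with group mean and SD in black. Srebf2 over Srebf1 stays near 1.15 in both groups, and Insig1 over Insig2 has means of -0.27 and 0.05 with overlapping groups.

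Uptake and transport genes also differed little. Npc2 and Npc1 together move cholesterol out of lysosomes. Npc2 held 123, 147 and 148 CPM in WT and 187, 178 and 139 CPM in sKO, so sKO libraries 1 and 2 were above the WT range and sKO library 3 was inside it (edgeR log2 fold change 0.27 with SE 0.12, adjusted p = 0.376). Npc1 held 36.2, 40.9 and 43.8 CPM in WT and 48.1, 44.0 and 43.9 CPM in sKO (edgeR log2 fold change 0.17 with SE 0.11, adjusted p = 0.539), with no overlap but with 2 sKO libraries within 1 CPM of the highest WT library. Npc1 shares 511 exon bases with Rmc1 on the opposite strand. Scarb1, the HDL receptor that supplies Leydig cells with cholesterol ester, ranged from 166 to 230.4 CPM in WT and from 205 to 223 CPM in sKO (log2 fold change 0.12, SE 0.12). Stard4, a sterol transfer protein, and Abca1, which exports cholesterol to apolipoproteins, had log2 fold changes of 0.11 and -0.02.

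Per length of exon sequence, Hmgcs1 had the highest level of the members in both groups, and Hsd17b7, Tm7sf2 and Npc1 the lowest. Counts per kilobase of annotated exons, scaled to the same sum as CPM in each library, averaged 260.5 ± 45.5 for Hmgcs1 in WT and 277 ± 4.18 in sKO (SD, n = 3 each), above every other member. Scap, Srebf2, Insig2, Insig1, Npc2 and Scarb1 followed at 126 to 93.8 in WT, and neighbours in that order differed by less than the larger of their SDs. Hsd17b7, Tm7sf2 and Npc1 stood at 17.3 ± 2.29, 15.5 ± 1.48 and 14.6 ± 1.45 in WT, the last a 17.9-fold lower level than Hmgcs1. Exon lengths came from a GRCm38 annotation that counts every annotated exon, so genes with long, rarely used exons are placed too low.

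The members varied among the WT libraries. The range of the 3 WT libraries exceeded the group difference for 27 of the 30 members on the log2 scale. The matching share over all genes was not computed. A range of 3 libraries also tends to exceed a difference of means where little changes, so this count does not set the members apart. The median within-group SD of the members was 0.167 in WT and 0.10 in sKO (0.145 and 0.108 for genes in the same range of levels). WT libraries 1 and 2 held the lowest value of 24 members, 11 in WT library 1 and 13 in WT library 2, while 46.8% of all genes tested had their lowest value in these libraries. At the other end, sKO library 1 held the highest value of 12 members, beside 20.5% of all genes tested, and without it the members' median log2 fold change was 0.06 in place of 0.12. WT library 1 was lowest for Pmvk, Mvd, Fdft1, Ebp, Dhcr7, Srebf1, Srebf2, Scap, Scarb1, Npc1 and Npc2. WT library 2 was lowest for Acat2, Hmgcs1, Mvk, Idi1, Ggps1, Sqle, Cyp51, Msmo1, Nsdhl, Hsd17b7, Sc5d, Insig1 and Stard4. Scap and Scarb1, low in WT library 1, were highest of all in WT library 2, and Idi1 and Sqle, low in WT library 2, were highest in WT library 1.

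The deviation of a member in these libraries followed the GC content of its transcripts. Across the 30 members, which share each library, Spearman's rho between GC content and the deviation from the mean of the 6 libraries was -0.64 in WT library 1 and 0.72 in WT library 2, and between -0.27 and 0.17 in the other 4. Across the 16739 genes tested with a GC value it was -0.41 and 0.46 in WT libraries 1 and 2. Idi1, with the lowest GC content of the members at 40.8%, deviated by 0.28 in WT library 1 and by -0.40 in WT library 2 on the log2 scale. Srebf1, with the highest at 59.8%, deviated by -0.33 and 0.09. With GC content taken into the fit, an alternative chosen after the data were seen, 0 members were called. In that fit 23 estimates were higher and 7 lower, with a median of 0.09, and 2 members were higher and 1 lower at an unadjusted p under 0.05, against 5.92% and 11.5% of all genes in the same fit.

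**Figure D4:**
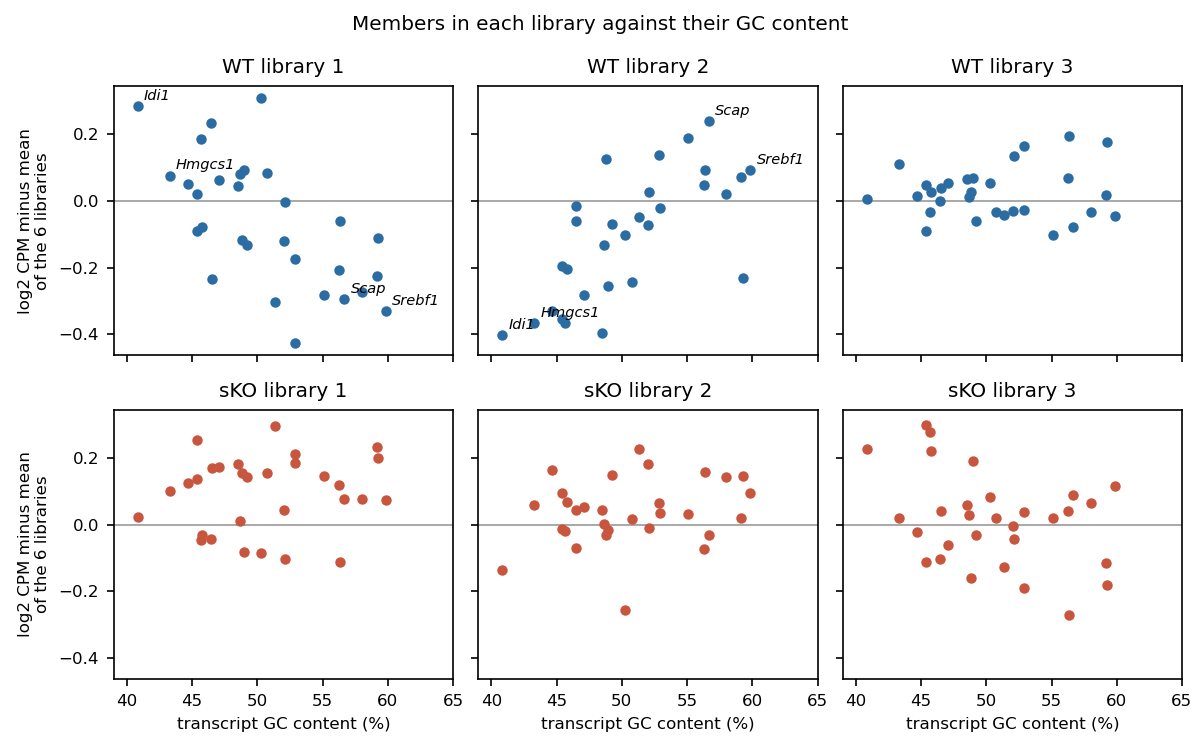
Deviation of each member's log2 CPM from its mean over the 6 libraries (y axis) against the median GC content of its annotated transcripts in percent (x axis), 1 panel per library and 1 point per member. Points slope down in WT library 1 (rho -0.64) and up in WT library 2 (rho 0.72).

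Other genes of sterol and lipid metabolism gave 0 calls by edgeR in 4 lists. Fatty acid synthesis, the program of SREBP1, had 13 of 15 genes with higher estimates, 5 of them at an unadjusted p under 0.05, and a median log2 fold change of 0.16. Elovl6, a fatty acid elongase, averaged 10.5 ± 1.55 CPM in the WT libraries and 16.9 ± 3.38 CPM in the sKO libraries (± SD, n = 3 per group; edgeR log2 fold change 0.70 with SE 0.18, adjusted p = 0.0980), the largest estimate of that list, and was called by DESeq2 (adjusted p = 0.0222). Elovl5, a second elongase, and Mid1ip1, an activator of acetyl-CoA carboxylase, had log2 fold changes of 0.25 and 0.23. In the list of SREBP processing and sterol sensing 8 of 15 estimates were higher and 7 lower, with a median of 0.03, and an unadjusted p under 0.05 was reached by 2, each of them higher. Spring1, a cofactor of the SREBP protease, averaged 17.9 ± 1.95 CPM in the WT libraries and 23.5 ± 1.53 CPM in the sKO libraries (± SD, n = 3 per group; edgeR log2 fold change 0.39 with SE 0.13, adjusted p = 0.206). Pgrmc1, a heme-binding membrane protein, and the ubiquitin ligase gene Rnf145 had log2 fold changes of 0.21 and 0.17.

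The isoprenoid branch had 5 of 16 estimates higher and 11 lower, with a median of -0.04 and 1 gene lower at an unadjusted p under 0.05. That gene, Icmt, the methyltransferase of prenylated proteins, averaged 149.7 ± 18.3 CPM in the WT libraries and 118 ± 8.60 CPM in the sKO libraries (± SD, n = 3 per group; edgeR log2 fold change -0.35 with SE 0.11, adjusted p = 0.169). Rabggtb, a subunit of Rab geranylgeranyl transferase, and Pdss2, of ubiquinone side chain synthesis, had log2 fold changes of 0.22 and -0.26. Of 25 genes of sterol storage, transfer and oxidation 24 could be tested, with 19 estimates higher and 5 lower and a median of 0.12; 2 were higher and 1 lower at an unadjusted p under 0.05. Star, which brings cholesterol into Leydig cell mitochondria, held 27.9, 36.6 and 33.1 CPM in WT and 58.3, 42.6 and 134 CPM in sKO (edgeR log2 fold change 1.27 with SE 0.46, adjusted p = 0.319), with sKO library 3 far above the others. Gramd1c, of a family of sterol transfer proteins, had a log2 fold change of -0.75 (SE 0.25, edgeR adjusted p = 0.188), and the lipid-binding Stard5 had one of 0.29.

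Of the marker lists of testis cell types described next, edgeR made calls in pachytene spermatocytes alone. Of 15 markers of pachytene spermatocytes 14 were tested, 13 had lower estimates and 4 were called lower. At an unadjusted p under 0.05 in edgeR 11 were lower and 0 higher, and the median log2 fold change was -1.74. The summed level of the 15 was 786 to 1640 CPM in WT and 316 to 529.8 CPM in sKO. For Sertoli cells 15 of 15 markers had positive estimates, 0 called by edgeR and 8 with an unadjusted p under 0.05, and their summed level was 7170 to 8067 CPM in WT and 8470 to 10080 CPM in sKO, with median log2 fold change 0.23. Leydig cell markers (11 genes) summed to 537 to 732 CPM in WT and 790.7 to 885 CPM in sKO, with 0 called by edgeR and 2 higher at an unadjusted p under 0.05 (Cyp17a1 and Star). Summed without these 2, chosen after their values were seen, the other 9 gave 496 to 687 CPM in WT and 585 to 746 CPM in sKO, which overlap. Macrophage markers (11 genes) summed to 119.7 to 179 CPM and 161 to 218 CPM, and spermatogonia markers (13 genes) to 788 to 950.6 CPM and 919 to 947 CPM; the groups overlapped for both and edgeR called 0 of either list. All genes of these 5 lists except 1 of pachytene spermatocytes had counts in every library. Epididymis markers summed to 149 CPM in sKO library 1, against at most 17.7 CPM in WT and 13.9 CPM in the other sKO libraries. Of the 9, 2 had counts in every library and 1 was at 0 in every library. Most of the sum in sKO library 1 came from Crisp1, Cdh16 and Adam7, at 89.7, 43.7 and 13.2 CPM. Cst11 held 1.44 CPM there, and Lcn8 and Spint4 held 0. The list's median log2 CPM relative to the WT mean was 0.006 in that library. The part of these differences in cell type markers in the members' estimates was not tested, and in whole testis fewer cells of a type and less RNA per cell cannot be told apart.

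**Figure D5:**
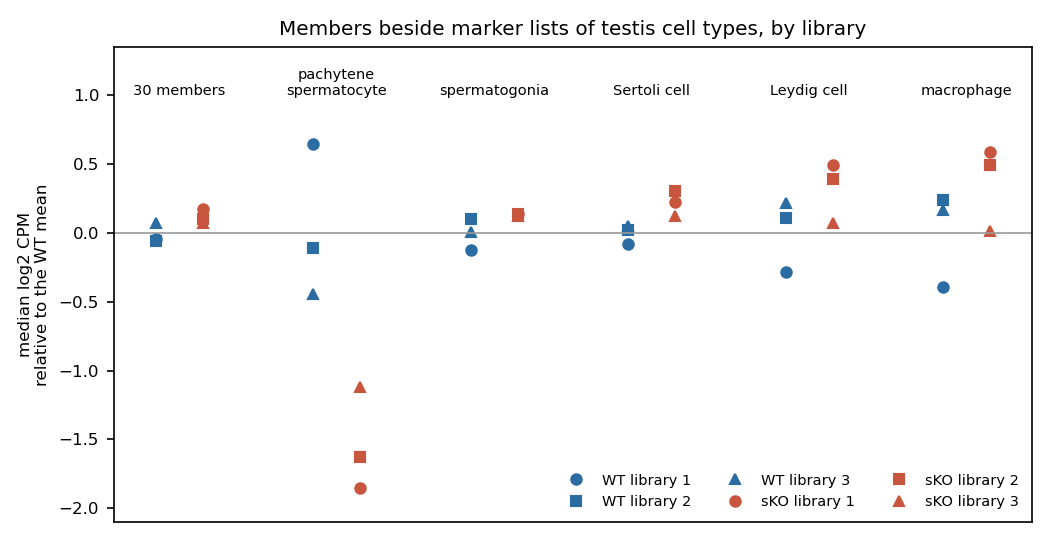
Median log2 CPM of the members' list and of 5 marker lists relative to the WT mean of each gene (y axis), 1 symbol per library, WT in blue and sKO in red. The members lie between -0.06 and 0.17 in every library, while pachytene spermatocyte markers run from 0.64 in WT library 1 to -1.85 in sKO library 1.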

How the data were processed

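Testis poly(A) RNA of 3 WT and 3 sKO samples was measured in 1 table of raw read counts per gene symbol, which the authors deposited without normalization. Per the submitters' processing notes, reads went through Trim Galore, HISAT2 and featureCounts on build mm39. Versions, annotation release, strand setting and treatment of reads with several matches: not given in the sources used here. Columns headed con and scKO were read as WT and sKO and matched to samples by number. All 50763 rows name a gene.

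Counts were filtered with filterByExpr, scaled with TMM factors and tested with the robust quasi-likelihood F test of edgeR 4.0.16 in R 4.3.3, with no covariate. Benjamini-Hochberg adjustment ran over 18860 genes, and SEs were derived from the F statistic. A count of 0 would allow up to 0.165 to 0.187 CPM (3 counts), for counting error alone. DESeq2 1.42.0, limma-voom (limma 3.58.1; with a robust prior too, added after the plain version had been seen), other scalings, no filter, a replicate block, a GC adjustment (a smooth curve of each library's log2 deviation on GC, taken into its offsets) and left-out libraries were alternatives. The scripts were tested on simulated data.

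The members and the lists were chosen with earlier results of these data known. Values in every library are given for the 2 members of each role that have the smallest p and for the named pairs. Idi1, Sqle and Cyp51, and the ranges of Scap and Scarb1, were added after their values were seen. So were the fold bounds, the use of t quantiles rather than normal ones for the intervals, the range of levels, the tally of lowest libraries, the comparison with the WT range, the shared sequence, the GC relation and the motif strings. From each of the 4 further pathway lists the 3 genes with the smallest p are named. Exon lengths, GC content and shared sequence came from GENCODE M21 and promoters from RefSeq, both of GRCm38, used by symbol.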

Additional observations from a re-analysis of the deposited data

How the results depend on the processing

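No member was called under any of the 17 alternatives. Of these, 3 were chosen after seeing the data: the GC adjustment, leaving out WT library 1 and sKO library 3 together, and limma-voom with a robust prior. Plain limma-voom was run first and called 0 genes of all, and the robust version was added with that count known. The smallest adjusted p of a member over the 17 was 0.117. Without WT library 2, 5 members (Dhcr7, Srebf1, Srebf2, Scap and Scarb1) were higher and 0 lower at an unadjusted p under 0.05 in edgeR. The same fit gave 1102 higher and 1662 lower genes of all at that threshold. Its smallest edgeR adjusted p of a member was 0.265. The direction of the estimate was kept by 17 members in all 17 and turned in at least 1 for the other 13. The members' median log2 fold change lay between 0.0507 and 0.15 when 1 library was left out, the lowest without WT library 2, and was 0.06 without both libraries numbered 1.

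Counts over all genes moved more. edgeR called 240 genes lower and 6 higher, DESeq2 721 and 56, and limma-voom 0 and 0 (1598 and 932 at an unadjusted p under 0.05), or 15 and 0 with the robust prior. Without the low-count filter 992 and 154 were called, without both libraries numbered 1 155 and 5, without WT library 1 and sKO library 3 691 and 55, and with the GC adjustment 315 and 17. Leaving out 1 library gave 0 to 624 lower and 0 to 31 higher, with 0 in both directions without WT library 2, sKO library 1 or sKO library 2, where an unadjusted p under 0.05 was reached by 1662, 1410 and 1221 lower and 1102, 431 and 503 higher genes. Rif1 had log2 fold changes from -1.30 to -0.97 in these fits, and -1.14 in limma-voom, where its adjusted p was 0.0522 (0.0453 with the robust prior). Of the other pathway genes DESeq2 called 1 higher (Elovl6), and the fit without the filter called 2 lower (Gramd1c and Icmt) and 1 higher (Elovl6). The cause of these shifts was not tested.

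The replicate numbers of the labels did not pair the libraries: deviations from the group means correlated across genes at -0.365, 0.146 and -0.308 for numbers 1 to 3. Between libraries of unlike number the correlations ran from -0.29 (WT library 2 with sKO library 3) to 0.487 (WT library 1 with sKO library 3). The last was the highest of all, and its cause was not tested. With the replicate block 21 genes were lower and 0 higher (1324 and 605 at an unadjusted p under 0.05), 0 members were called, and their median log2 fold change was 0.12.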
